A study of Danio rerio with 3 samples.

Results

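Of the 27647 intervals found in both H3K27ac libraries of the zebrafish embryo's posterior trunk, 8103 were narrow, solitary and away from H3K27me3. This was 29.3% (exact 95% interval 28.8 to 29.9%). These 8103 members were chosen from the called regions themselves. Each was under 1000 bp wide, had no other interval of both libraries within 12.5 kb on either side, and had no region of H3K27me3 within 5 kb. Width, presence in both libraries and distance were therefore used in the choice, and no value below is a test of them. Of the 27647 intervals, 26579 were under 1000 bp wide, 10646 had no other interval within 12.5 kb, and 21917 had no H3K27me3 region within 5 kb. The 8103 members covered 3.31 Mb, which was 28.5% of the 11.6 Mb of DNA under all 27647 intervals.

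All embryos were wild type and were taken at 16 hours post fertilisation, and the tissue of every library was the posterior trunk, which the study links to a regulatory landscape of the cloaca. The assay was CUT&RUN, in which a nuclease tethered to an antibody cuts out the DNA around a histone mark. There were 2 libraries of H3K27ac (replicates 1 and 2) and 1 library of H3K27me3. Nothing in the labels tells whether replicates 1 and 2 came from different clutches, so their spread is perhaps only technical, and the tissue mixes many cell types.

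Acetylation of lysine 27 on histone H3 is placed by the acetyltransferases Ep300 and Crebbp and marks nucleosomes beside active enhancers and promoters. Trimethylation of the same lysine is placed by the Polycomb repressive complex PRC2 and marks silenced genes of development. Enhancers of one gene often lie in groups, and joining acetylated intervals across gaps of up to 12.5 kb is the usual way to find such groups. The members are the narrow intervals away from H3K27me3 among the 10646 that this joining leaves on their own. Members are named by their danRer11 positions, since genes of that build were not used here. Enhancers and promoters are therefore not told apart, and the tissue label was not checked against marker genes.

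The lists held 45534 regions in replicate 1 and 60427 in replicate 2. Depth is known only through the genome-wide background of the peak caller, recovered from each peak's deposited fold and p-value, which was 0.806 tags in replicate 1 and 1.10 tags in replicate 2. This puts replicate 1 at 73.2% and the H3K27me3 library at 33.6% of the depth of replicate 2, provided the caller was given one genome size throughout. The summit pileup below is the number of tags over the summit, and the 10-kb tag density is the number of tags in the 10-kb window around the summit divided by the genome-wide background. Its lowest possible value is 1.

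Most members stood over a modest rise in signal. The median summit pileup was 14 tags in replicate 1 and 18 tags in replicate 2, with ranges of 5 to 69 and 5 to 84. The median fold was 4.35 in replicate 1 and 4.35 in replicate 2, or 4.35 ± 0.00496 (SD of the medians, n = 2). The median -log10 q was 4.61 in replicate 1 and 5.99 in replicate 2. These medians lay at the 65.4th percentile of the list of replicate 1 and at the 73.6th percentile of the list of replicate 2. A call in both lists was part of the rule and weak calls often lack a partner, so these percentiles are no finding: with replicate 1 or replicate 2 left out, and so no partner required, the median percentile was 36.01 or 40.03, against 69.5 for the mean of both. In both lists 2026 of the 8103 members were in the top 20% by -log10 q and 141 (1.74%) were in the bottom 20%. Among the narrow intervals with a neighbour described next, 24.1% were in the top 20% of both lists, against 25% of the members, and 0.791% were in the bottom 20%. Their median -log10 q was 4.93 in replicate 1 and 7.45 in replicate 2, with median percentiles of 68.1 and 79.3. By these medians the members ranked lower in both replicates.

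The 12902 narrow intervals away from H3K27me3 that had a neighbour within 12.5 kb differed in signal but little in width. Another region of replicate 1 lay within that distance of 12593 of them, another of replicate 2 of 12153, and another of both of 11844. For the rest, the neighbour was a piece of the same region in 1 list, split by the other. Regions split in this way can also occur among the 11844, where they were not counted. The values of such a region enter the class more than once. This bears on every comparison with this class, and its part was not tested. Their median width was 357 bp, against 371 bp for the members. Their summits held more tags, with a median pileup of 19 in replicate 1 and 26 in replicate 2. The log2 ratio of the median pileups, members over intervals with a neighbour, was -0.49 ± 0.06 (SD, n = 2). The median 10-kb tag density was 2.90 in replicate 1 and 2.91 in replicate 2 at the members, and 4.81 and 4.85 at the intervals with a neighbour. Its log2 ratio was -0.73 ± 0.01 (SD, n = 2). Tags of a neighbour within 5 kb are counted in that window, so a lower density at the members follows in part from the choice. Fold divides the pileup by the local background, which comes from that same window, so it is tied to the choice too. It was higher at the members, with a log2 ratio of 0.13 ± 0.04 (SD, n = 2). With replicate 1 or replicate 2 left out, and the members chosen from the other list alone, it was 0.0444 or 0.0761. The ratios from both lists were each further from 0 than their SD. Both lists together chose the classes, so this SD does not measure the spread between independent samples. No test was run.

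**Figure D1:**
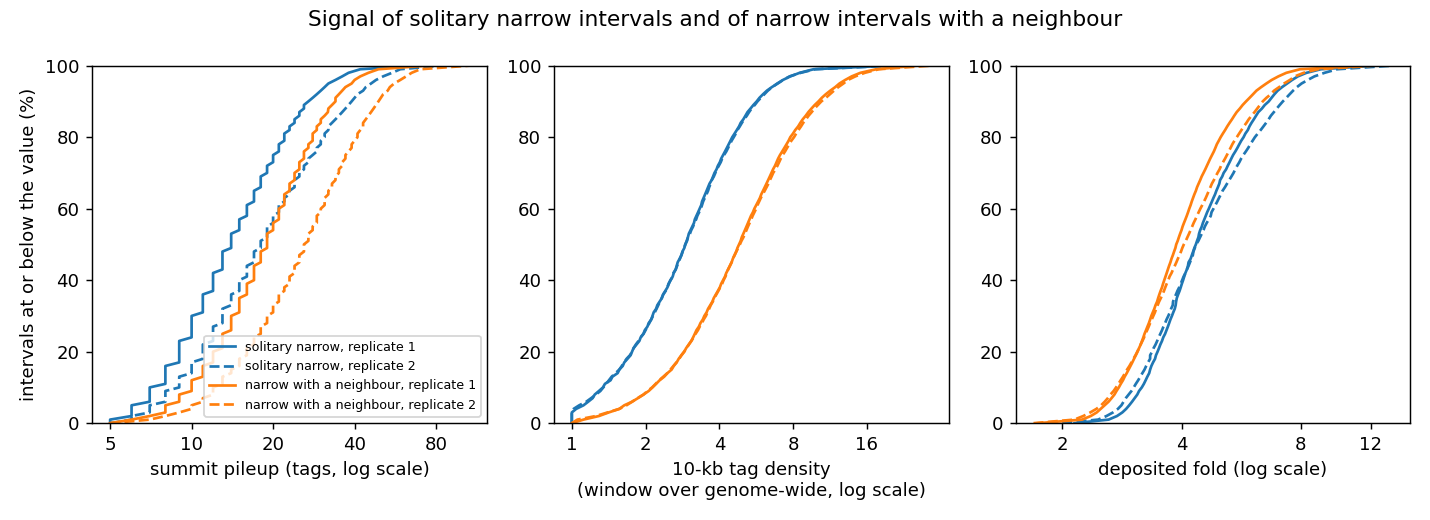
Share of intervals (y axis, %) at or below a given summit pileup in tags (left), 10-kb tag density (middle) and deposited fold (right), all on log axes, for the 8103 solitary narrow intervals (blue) and the 12902 narrow intervals with a neighbour (orange) in replicate 1 (solid) and replicate 2 (dashed). The members lie to the left in pileup and density and slightly to the right in fold, and the density curves of the replicates nearly coincide.

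The other solitary classes framed these values. The 493 solitary intervals of at least 1000 bp had a median fold of 5.70 in replicate 1 and 6.44 in replicate 2, and median densities of 5.73 and 6.09, above those of the members in both replicates. The 1971 narrow solitary intervals with H3K27me3 within 5 kb had median folds of 4.19 and 4.17 and median densities of 3.20 and 3.18 in replicates 1 and 2. The members' folds lay slightly above these and their densities slightly below, in both replicates. Of those 1971 intervals, 826 overlapped an H3K27me3 region.

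The strongest members ranked near the top of both lists. Members are ordered here by the lower of their percentiles of -log10 q in the 2 lists. The first lay on chromosome 9 from 54984667 to 54985535 and was 869 bp wide. Its fold was 11.8 in replicate 1 and 13.4 in replicate 2, its summit pileup was 54 and 82 tags, and its -log10 q was 37.1 and 60.8. The next interval of both replicates was 130 kb away, and the nearest other region of a single replicate was 66.9 kb away. Its summits in the 2 replicates lay 9 bp apart.

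Others of the 10 strongest had a region of a single replicate close by. On chromosome 1, from 22851308 to 22852159, fold was 9.80 and 10.6 in replicates 1 and 2 and the summits coincided, but another region of replicate 2 began only 0.11 kb away. On chromosome 12, from 11306046 to 11306834, fold was 9.13 and 10.03, with another region of replicate 1 at 0.341 kb and none of replicate 2 closer than 45.7 kb. Both members were solitary only because the adjoining region had no partner in the other list. A member on chromosome 5, from 52596749 to 52597444, had folds of 10.6 and 10.7 and no other region of either replicate closer than 28.4 kb. The most compact of the 10 strongest, on chromosome 25 from 30460318 to 30460788, measured 471 bp, with folds of 11.7 and 12.7 in replicates 1 and 2. There the summit pileups of 34 and 56 tags made up 34.3 and 32.0% of the tags in the 10-kb window. Another region of replicate 2 lay 0.462 kb from this member.

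The remaining 5 of the 10 strongest had folds between 7.00 and 11.7. On chromosome 3, from 36457412 to 36458292, fold was 9.26 ± 0.02 (SD, n = 2). On chromosome 10, from 2841090 to 2841921, it was 10.5 ± 0.05 (SD, n = 2), and no other region of either replicate lay closer than 27.2 kb. On chromosome 16, from 25698770 to 25699716, it was 7.81 ± 0.11 (SD, n = 2). In these 3 the replicates were close in fold. A member on chromosome 9, from 54716040 to 54716835, had folds of 10.3 and 11.7. On chromosome 8, from 16673930 to 16674721, the folds of 7.00 and 7.95 came with densities of 9.58 and 7.32 in replicates 1 and 2, the highest of the 10 in replicate 1 but not in replicate 2. Another region of replicate 2 lay 0.534 kb from this member.

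Members were not always solitary against the full lists, in which a region need be called in 1 replicate only. Another region of replicate 1 lay within 12.5 kb of 2622 members (32.4%), and another region of replicate 2 lay within that distance of 4123 members (50.9%). For 5291 members (65.3%, exact 95% interval 64.3 to 66.3%) at least 1 of the 2 lists held such a region. This left 2812 members (34.7%) with no other region of either replicate within 12.5 kb. Such a region lay near 70.1% of the narrow solitary intervals near H3K27me3 and 57.0% of the wide solitary intervals. It was thus not particular to the members. The extra regions near members had median percentiles of 32.0, against 63.9 for the members beside them, in replicate 1 and 36.0 against 71.0 in replicate 2. A member needed a partner in the other list. No extra region could overlap the other list within 12.5 kb of the member, so this difference is tied to the rule. The extra region was the stronger of the pair beside 559 members (21.3%) in replicate 1 and beside 855 (20.7%) in replicate 2. An extra region lay within 1 kb of 1014 members (12.5%), against 14.4% of the narrow solitary intervals near H3K27me3 and 5.68% of the wide solitary intervals. The share of members with an extra region followed the limits: with only regions of -log10 q of at least 5 it was 30.6%, and with a neighbour distance of 5 kb it was 32.7%.

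The extra regions were not spread evenly around the members. Counted by the distance between summits, there were 14.7 other regions of replicate 1 per 1000 members between 4 and 5 kb and 32.0 between 5 and 6 kb. In replicate 2 the counts were 30.4 and 61.6. Closest to the members the counts were high again, at 36.3 and 68.1 within 1 kb and at 25.4 and 43.1 between 1 and 2 kb in replicates 1 and 2. Beyond 5 kb the counts were nearly level, at 32.0 to 39.1 in replicate 1 and 61.6 to 70.0 in replicate 2. From 2 to 5 kb they averaged 18.6 and 35.2 per 1000 members per kb, and from 5 to 8 kb they averaged 36.7 and 66.3, which is 1.98 and 1.88 times as many in replicates 1 and 2. The peak caller's 10-kb window reaches 5 kb to each side of a summit, so the tags of a member enter the background of any summit inside that distance. The part of this window in the step was not tested.

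The same step stood around other intervals. Around all 27647 intervals the ratio of the 5-to-8-kb count to the 2-to-5-kb count was 1.58 in replicate 1 and 1.60 in replicate 2. The 493 wide solitary intervals had 3, 2 and 4 other regions of replicate 1 in the 3 steps from 2 to 5 kb and 8, 16 and 17 in those from 5 to 8 kb, too few for a precise ratio. Among the members this ratio was 2.71 and 2.41 in the lowest quartile by summit pileup and 1.98 and 1.63 in the highest, in replicates 1 and 2. For all members it was 1.98 and 1.88, so in replicate 1 the highest quartile was no lower than the whole. The lowest quartile had only 26, 24 and 27 other regions of replicate 1 in the 3 steps from 2 to 5 kb. The quartiles between are not given, so no steady trend with pileup is shown.

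**Figure D2:**
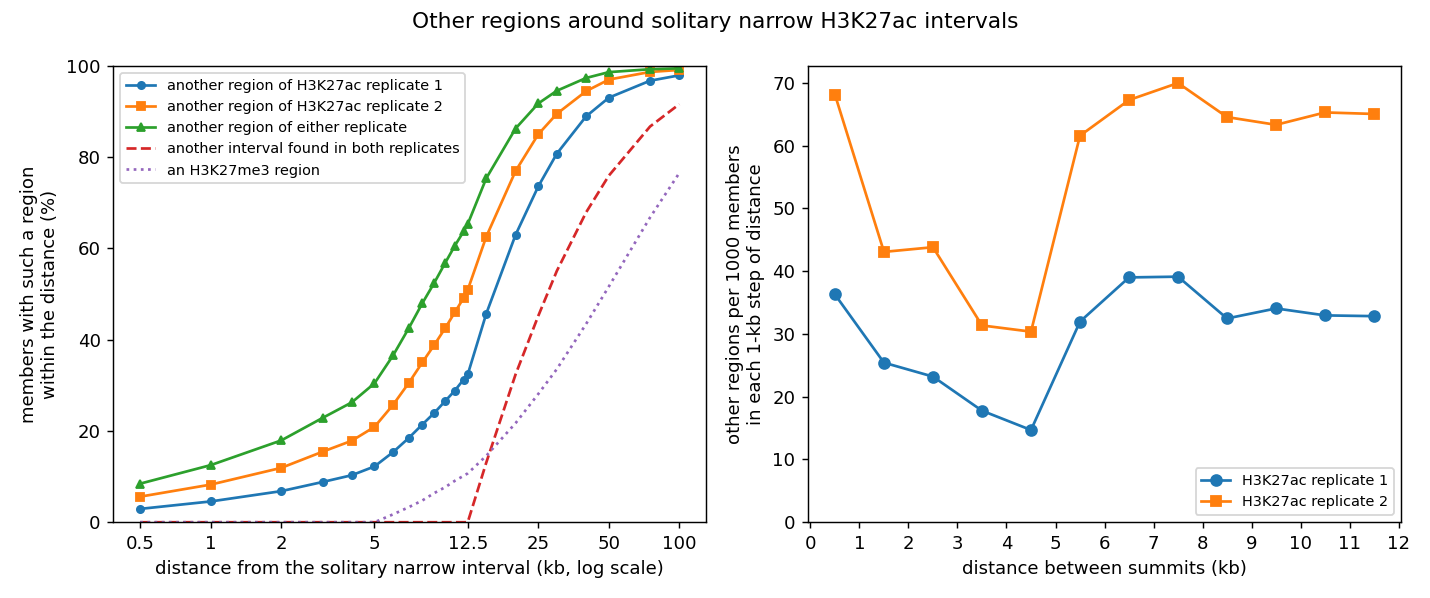
Left: share of the 8103 members (y axis, %) with another region within a given distance (x axis, kb, log scale), where 65.3% have another region of either replicate within 12.5 kb while the rule allows no interval of both replicates there. Right: other regions per 1000 members in each 1-kb step of the distance between summits (x axis, kb), with a step at 5 kb from 14.7 to 32.0 in replicate 1 and from 30.4 to 61.6 in replicate 2.

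The windows of most members held more signal than their called regions could cover. The 10-kb window of the median member held 117 tags in replicate 1 and 160 in replicate 2, where the genome-wide background gives 40.3 and 55.0. Counted in tag lengths, a called region can hold at most its highest pileup over its whole width. This limit came to a median of 30.1 and 49.2 tags in replicates 1 and 2. Tags that cross the edges of a region count only in part in it. Were they counted whole, the shares below could only be lower. In 6521 members (80.5%) in replicate 1 and 6051 (74.7%) in replicate 2, the window held more tags above the genome-wide background than this limit. This also held in 2054 (73.0%) and 1801 (64.0%) of the 2812 members with no other region of either replicate within 12.5 kb. Their windows held medians of 107 and 147 tags. In these 2054 and 1801 members tag lengths above the genome-wide background therefore lay in part outside any called region, within the reading of the background as tags per 10 kb. Over the 2812 members the median excess beyond the limit was 22.2 and 15.7 tags, against median summit pileups of 13 and 18 in replicates 1 and 2. The part of tags that cross the edges was not tested. The other classes were not counted in this way, so the trait is not shown to be particular to the members.

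Few members stood on a background no higher than the genome-wide value. There were 263 (3.25%) in replicate 1, 309 (3.81%) in replicate 2 and 153 (1.89%) in both. Among narrow intervals with a neighbour the share was 0.550% in replicate 1 and 0.783% in replicate 2. Of the 153, that with the highest summed -log10 q on a placed chromosome lay on chromosome 3 from 1903228 to 1903628, with folds of 5.54 and 9.52 from pileups of 9 and 19 tags. Its next interval of both replicates was 262 kb away. On chromosome 5, from 7593273 to 7593990, folds were 6.64 and 8.09, and on chromosome 16, from 54190039 to 54190359, they were 5.54 and 8.09. The other 2 of the first 5 in this order lay on unplaced scaffolds and were the only interval there. Over all members the summit pileup made up a median of 12.2% of the window's tags in replicate 1 and 11.4% in replicate 2. The highest values were 44.7 and 43.6%. Windows with no more tags than the genome-wide value were counted at that value. Their true count is not known, so the share in them may be higher.

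At the other end, the member with the densest window lay on chromosome 16 from 16347124 to 16347602. Its density was 19.5 in replicate 1 and 20.4 in replicate 2, from 787 and 1122 tags, and its fold was only 3.41 and 2.94. Another region of each replicate lay within 5.2 kb of it. The next densest, on chromosome 17 from 30374682 to 30375136, had 675 and 978 tags in its windows and folds of 2.62 and 2.97. The other 3 of the 5 densest, on chromosomes 23, 22 and 4, had densities between 14.3 and 17.6 and folds between 2.00 and 2.63. All 5 thus had low fold over a high local background, and each had another region of a single replicate within 5 kb. Across all members, however, fold hardly varied with density (Spearman rho -0.0058 in replicate 1 and 0.06 in replicate 2).

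Wider members were stronger. Across the 8103 members, width and -log10 q had a Spearman rho of 0.71 in replicate 1 and 0.76 in replicate 2. Members are not independent, and both values come from the same tags. In the quartile of widths from 570 to 999 bp the median folds were 5.69 and 6.33, and 1407 of 2026 members (69.4%) were in the top 20% of both lists. In the quartile of widths up to 216 bp the median folds were 3.70 and 3.49, and 3 of 2026 were in the top 20% of both. A region of 1 replicate within 12.5 kb stood beside 56.9% of the widest quartile and 67.3% of the narrowest.

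Some members had a region of at least 1000 bp in 1 or both libraries, and only the overlap was narrow. The region of replicate 1 reached 1000 bp in 187 members (2.31%) and that of replicate 2 in 636 (7.85%). Among narrow intervals with a neighbour these shares were 2.79 and 14.7%. The overlap of the 2 regions measured under 50 bp in 172 members (2.12%), although no region was shorter than 200 bp. The region of replicate 2, the deeper library, was the wider in 5551 members (68.5%). In narrow intervals with a neighbour, overlaps under 50 bp made up 2.10% and a wider region of replicate 2 70.8%. Neither share was thus particular to the members. Just inside the limit of 1000 bp, a member on chromosome 15 (1621545 to 1622543) had folds of 7.49 and 7.52, and just outside it, an interval of 1000 bp on chromosome 17 had folds of 5 and 7.46. At the limit of 12.5 kb, a member on chromosome 5 had folds of 4.93 and 5.56, and the interval just outside, on chromosome 19, had 3.15 and 3.56. At the limit of 5 kb from H3K27me3, a member on chromosome 2 had folds of 4.94 and 5.51, and the interval just outside, on chromosome 3, had 3.91 and 2.62.

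The 2 libraries agreed better on window density than on summit values. Across the members the Spearman rho between replicates was 0.93 for 10-kb tag density, 0.82 for summit pileup, 0.66 for -log10 q and 0.62 for fold. The median log2 ratio of fold (replicate 2 to replicate 1) was 0.03, with an SD of 0.37 across members, and fold was higher in replicate 2 in 4294 members (53.0%). The log2 ratio of summit pileup had a median of 0.37, where the genome-wide backgrounds differ by 0.45. In the 12902 narrow intervals with a neighbour, rho was 0.47 for -log10 q and 0.96 for density.

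The widest disagreements ran 1 way. All 5 members with the largest difference in percentile were near the threshold in replicate 1 and strong in replicate 2. On chromosome 8, from 26709625 to 26710033, fold was 2.23 in replicate 1 and 5.32 in replicate 2, and -log10 q was 1.37 and 18.1. The window densities there, 7.64 and 7.47, differed little. On the same chromosome, from 25816993 to 25817354, fold was 3 and 7.95 with densities of 2.48 and 2.63. On chromosome 12, from 31060904 to 31061270, fold was 2.43 and 5.48. In each of the 5 the region had 1 summit in replicate 1 and at least 2 in replicate 2.

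**Figure D3:**
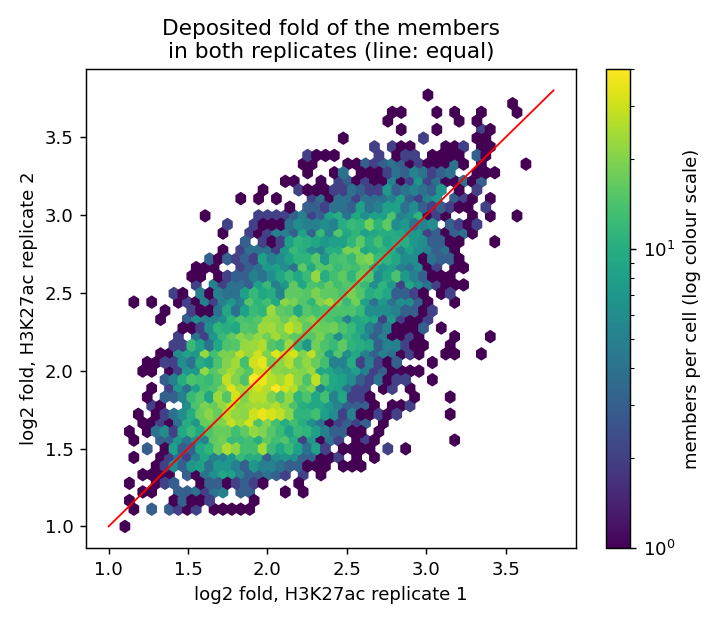
Deposited fold of the 8103 members on the log2 scale in replicate 1 (x axis) and replicate 2 (y axis), where colour gives the number of members per cell on a log scale and the red line marks equal values. The cloud follows the line with a Spearman rho of 0.62, and 53.0% of members lie above it.

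Summits within the members were spaced by a preferred distance. Nucleosomes repeat at a near-regular interval along DNA, and acetylated nucleosomes often stand on both sides of a gap where factors bind, so the placement of summits is of interest. More than 1 summit was called in 2150 members (26.5%) in replicate 1 and in 3465 (42.8%) in replicate 2. The shares were 27.6 and 52.8% in narrow intervals with a neighbour, and 23.4 and 43.7% in narrow solitary intervals near H3K27me3. Neighbouring summits within the regions of members lay a median of 266 bp apart in replicate 1 and 264 bp in replicate 2. The central 80% of spacings ran from 200 to 398 bp in replicate 1 and from 205 to 382 bp in replicate 2. In narrow intervals with a neighbour the medians were 263 and 271 bp, so the spacing was not particular to the members. Tags were read as 200 bp long, which limits how close separate summits can be called, and the part of tag length in this spacing was not tested.

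The summits of the 2 replicates lay a median of 70 bp apart, and within 50 bp in 3355 members (41.4%). In 1200 members (14.8%) they were 200 to 300 bp apart. Among narrow intervals with a neighbour these shares were 39.95% and 13.9%, so they were not particular to the members. Where both replicates had 1 summit (4216 members), the share at 200 to 300 bp was 11.5%, and the share per 25 bp went from 21.0% at the shortest distances to 2.35% at 275 to 300 bp with no second peak. Members with several summits in 1 or both replicates had a second peak, with 2.24% at 150 to 175 bp and 5.43% at 225 to 250 bp. Where both replicates had several (1728 members), the share at 200 to 300 bp was 21.2%. Measured to the nearest summit of replicate 2 rather than to its strongest, this share was 2.84%, and 76.4% lay within 50 bp against 50.2% before. The nearest summit is never farther than the strongest, so distances could only shrink and the direction of this change is no finding. In most of those 1728 members replicate 2 thus had a summit within 50 bp of the strongest summit of replicate 1, which was not always its own strongest.

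**Figure D4:**
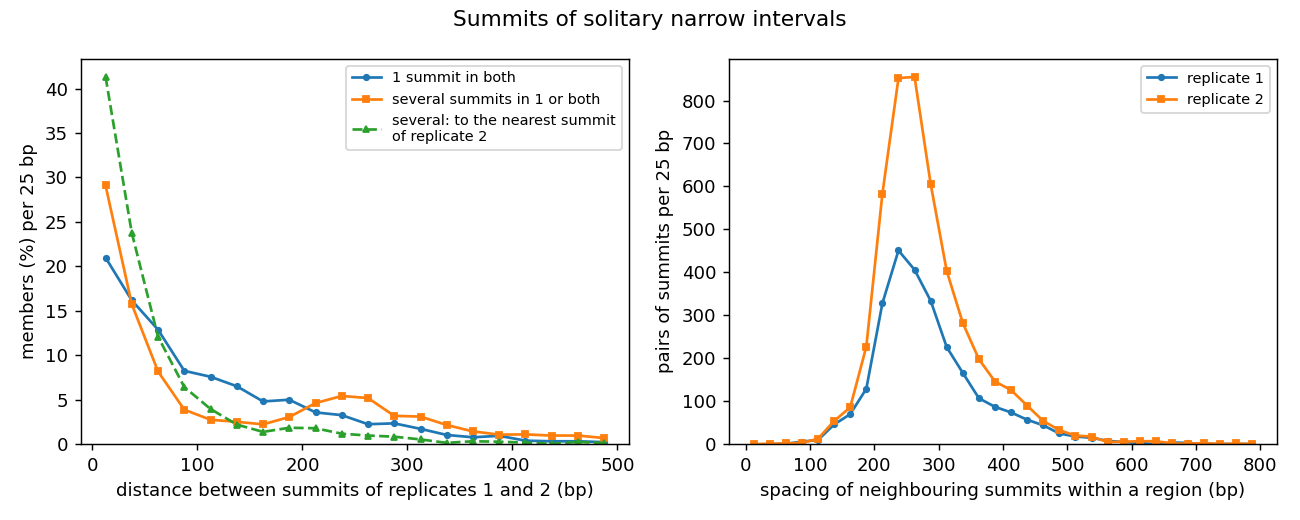
Left: distance between the strongest summits of the replicates (x axis, bp) as a share of members per 25 bp, for members with 1 summit in both replicates and for members with several in 1 or both, with the distance to the nearest summit of replicate 2 dashed. Right: number of neighbouring summit pairs by their spacing within a region (x axis, bp), with a median of 266 bp in replicate 1 and 264 bp in replicate 2.

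Distance to the next interval varied widely beyond the limit. Its median was 27.5 kb, 1953 members (24.1%) had none within 50 kb, 683 (8.43%) had none within 100 kb and 183 (2.26%) had none within 250 kb. Those counts include 88 members (1.09%) that were the only interval of their sequence, all on unplaced scaffolds. More remote members had slightly lower window density (Spearman rho -0.21 in both replicates), while -log10 q hardly varied with distance (rho -0.06 and -0.07). H3K27me3 lay a median of 47.7 kb away, and 1904 members (23.5%) had none within 100 kb.

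The rule also ties adjacent members together, since an interval beside a member already has a free side. For 2071 members (25.6%) both flanking intervals were members, for 3914 (48.3%) 1 of them was, and for 2118 (26.1%) neither was. The longest runs held 14 members, and 1 of the 2 such runs spanned 842 kb of chromosome 10, from 6907591 to 7749832. Its 14 members had folds of 2.92 to 6.38 in replicate 1 and 2.83 to 8.88 in replicate 2. The widest gap inside it was 269 kb. On its right side, the member from 7670883 to 7671556 had the highest fold of replicate 2, at 8.88 against 5.59 in replicate 1.

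Chromosome 4 stood apart from the others. Its 3.99 members per Mb compare with 4.86 to 7.12 over the remaining 24 chromosomes, yet members were 38.1% of its intervals (exact 95% interval 34.8 to 41.5%) against 25.4 to 33.4% on the others. Its intervals were also sparse, at 10.5 per Mb, where each of the remaining chromosomes had at least 17.6, and sparse intervals pass a distance limit more often. The low number came from its part beyond 30 Mb, on the repeat-rich long arm, where 85 of 153 intervals (55.6%, exact 95% interval 47.3 to 63.6%) were members, at 1.77 members and 3.19 intervals per Mb. In the first 30 Mb the share was 34.1%, at 7.53 members and 22.1 intervals per Mb. Members beyond 30 Mb had median window densities of 1.27 in both replicates, against 3.39 and 3.17 in the first 30 Mb, while their median folds of 4.89 and 4.76 were no lower than 4.31 and 4.25. Short reads are hard to place in repeats, and the part of read placement in these values was not tested.

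Of the 5 most remote members, 4 lay on this arm. The interval from 61690958 to 61691198 on chromosome 4 had its next interval of both replicates 1673.9 kb away, with folds of 3.39 and 4.39 from pileups of 7 and 9 tags, although another region of replicate 1 lay 2.76 kb away. The interval from 39054951 to 39055317 was 1577.2 kb from the next, with folds of 4.44 and 4.92. That from 57530959 to 57530964 measured 6 bp, because regions of 333 and 273 bp only just overlapped, and their summits were 353 bp apart. It and the interval from 56721817 to 56722266 were each other's nearest, 808.7 kb apart. The remote member outside chromosome 4, on chromosome 6 from 5204093 to 5204292, was 619.5 kb from the next interval and had folds of 3.85 and 3.81. Their percentiles of -log10 q ran from 16.4 to 64.3 in replicate 1 and from 36.0 to 68.2 in replicate 2, below the members' medians in both.

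**Figure D5:**
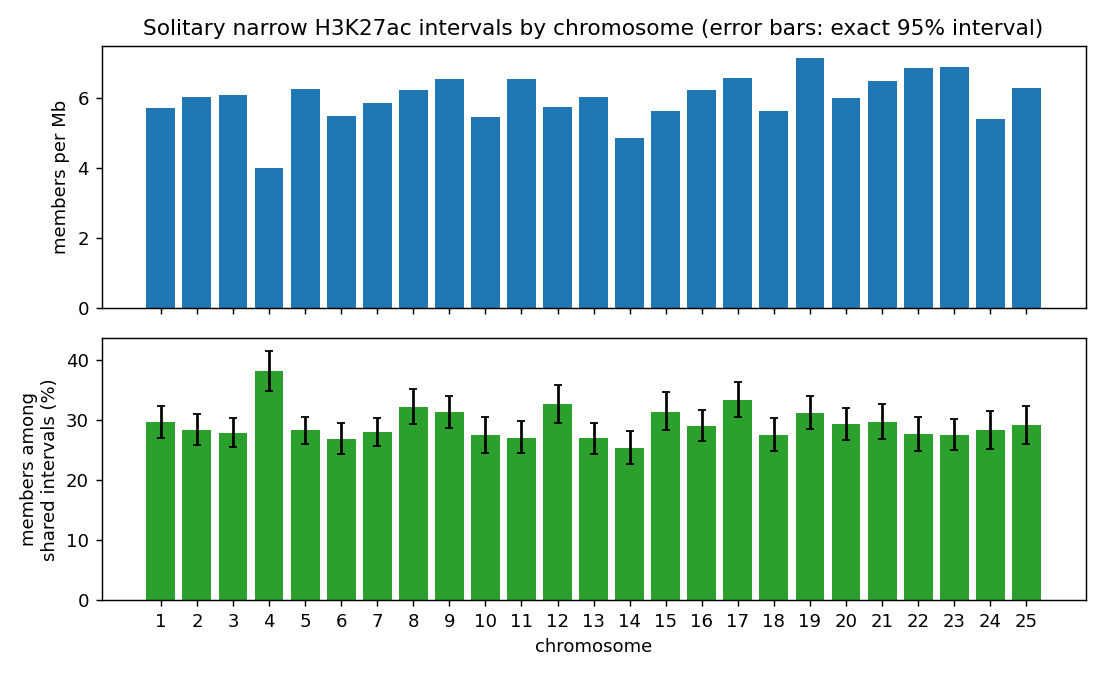
Members per Mb (top) and members as a share of the intervals found in both replicates (bottom, %, bars with exact 95% intervals for counting error) on each chromosome. Chromosome 4 has the fewest members per Mb, at 3.99, and the highest share, at 38.1%.

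The study concerns the hoxda cluster of body-axis genes, which lies on chromosome 9 in the RefSeq gene table of another build. Its danRer11 position was not given here, so the densest H3K27ac position of chromosome 9 was taken as a stand-in. That position had its summits around position 1963558, with densities of 25.5 in replicate 1 and 28.4 in replicate 2. Within 1 Mb of it there were 21 members among 89 intervals (23.6%, against 31.3% of the intervals of chromosome 9), 10 to the left and 11 to the right. Their densities ran from 1.09 to 4.89 with a median of 2.38 in replicate 1, and from 1.11 to 4.16 with a median of 2.38 in replicate 2, against 2.90 and 2.91 for all members. The closest member on the left, from 1918300 to 1918527, had folds of 3.66 and 4.77. The closest on the right, from 2020777 to 2021217, had folds of 3.64 and 4.70 and stood 10.3 kb from an H3K27me3 region with a density of 208.

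Of the 21 members, 7 were in the top 20% of both lists, where 25% of all members were, and none of these 7 was among the closest members on either side. The member from 1483401 to 1483975, to the left, had folds of 7.79 and 7.39. The member from 1654747 to 1655293 had 5.06 and 4.48, and H3K27me3 5.05 kb away. On the right, the member from 2522485 to 2523259, 559 kb away, had folds of 6.51 and 7.96 and the highest value of replicate 2 among the 21. The members from 2574037 to 2574476, from 2832858 to 2833377, from 2866054 to 2866601 and from 2944679 to 2945116 had folds between 5.17 and 7.02. Each of these 7 had pileups of 15 to 31 tags, so a single value carries a wide counting error.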

How the data were processed

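The lists came from CUT&RUN on wild-type posterior trunk, and groups and replicate numbers from the titles. The submitters' processing notes list MACS2 2.2.7.1, bedtools 2.30.0, Picard 3.0.0, SAMtools 1.16.1, Bowtie2 2.4.5, cutadapt 4.1 and the build danRer11, without their roles. No setting is recorded there. The authors deposited 1 peak list per library, with fold (the ratio of the summit's pileup to its background), the p-value and the q-value as -log10, a score of 10 times -log10 q, and the summit. The lowest -log10 q was 1.30.

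Touching lines were merged into regions, each represented by its line with the highest -log10 q. The mitochondrial genome was left out. Both H3K27ac replicates were intersected in bp. In MACS2, fold is (pileup + 1) / (background + 1) and the p-value is a Poisson tail. These were solved for pileup and background, within 0.001 of the deposited -log10 p. Only backgrounds at the genome-wide value, or above it and near a multiple of 0.02, were accepted. Under that condition each line had 1 solution. The multiples were read as tags of 200 bp in 10 kb, and this reading is not from the labels. The rule was tested on simulated intervals with planted classes. The inversion was only run again on fold and p-values recomputed from its own solutions, which cannot test the reading of the background. Percentiles rank regions within a list.

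The members, lists and limits were chosen with earlier results of these data known. No test across samples was run, as 2 libraries of one antibody face 1 of another. Intervals of shares are 95% Clopper-Pearson (exact) and hold counting error alone. Named members are the 10 strongest, the 5 farthest, the 5 with highest and 5 with lowest density, the 5 with the largest difference, those at each limit and all within 1 Mb of the densest position of chromosome 9, used in place of hoxda. The longest run was added after its values were seen. Sequence content and genes were not analysed here. The tools were matplotlib 3.10.9, scipy 1.17.1, pandas 2.3.3, numpy 2.4.6 and Python 3.11.15.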

Additional observations from a re-analysis of the deposited data

How the results depend on the processing

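The members had lower 10-kb tag density and higher fold than narrow intervals with a neighbour under each of the 17 alternatives, so no direction reversed. Both values rest on the 10-kb window and are tied to the choice under each alternative. The number of members depended on the limits. It was 4441 with a neighbour distance of 25 kb, 13054 with 5 kb and 2812 when a region of either replicate counted as a neighbour. With 1 replicate left out it was 12540 to 13638 regions, the share 22.6 to 27.5%, the log2 ratio of density -0.94 to -0.86 and that of fold 0.0444 to 0.0761. The other 12 counts were within 1.5 times the 8103 members. The share of 29.3% became 52.4% with a -log10 q of at least 5, 40.9% with 50% reciprocal overlap, 10.2% with a region of either replicate as neighbour, 16.1 and 47.2% with neighbour distances of 25 and 5 kb, 32.4, 23.0 and 36.4% with H3K27me3 distances of 1 kb, 20 kb and no limit, and 20.1 and 31.1% with widths under 500 bp and under 2 kb. It was 30.2% when only narrow intervals counted as neighbours and 26.5% when the regions of both replicates had to be narrow; these 2, and leaving out intervals under 50 bp, were chosen after seeing the data. The log2 ratio of density, -0.73 as reported, was -0.53 with a -log10 q of at least 5, -0.64 with reciprocal overlap, -0.66 with either replicate as neighbour, -0.71 and -0.80 with neighbour distances of 25 and 5 kb, -0.74 with H3K27me3 at 20 kb, and -0.86 and -0.70 with widths under 500 bp and under 2 kb. It was -0.71 with only narrow neighbours, -0.73 with narrow regions in both replicates, -0.72 without intervals under 50 bp, -0.72 without chromosome 4 and -0.73 without scaffolds. The log2 ratio of fold was 0.20 with a -log10 q of at least 5, 0.19 with reciprocal overlap, 0.21 with either replicate as neighbour and 0.0883 with widths under 500 bp. The causes of these shifts were not tested. The distance between summits was 47 to 76 bp over its alternatives. Members per Mb of each placed chromosome cannot change when scaffolds are left out. No paired analysis was possible because the antibodies share only replicate number 1. Replicate 1 is the shallower H3K27ac library, and the part of depth in these results was not tested.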
